A study of Mus musculus with 6 samples.

Results

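Melanocyte genes were followed in back skin epidermis of E18.5 mouse embryos, in 3 wild-type libraries (WT, replicates 1 to 3) and 3 libraries of the genotype labelled p63 alphaKO (p63alphaKO, replicates 1 to 3). The 8 genes are Dct, Pmel, Tyrp1, Tyr, Mlana, Mitf, Kit and Sox10, chosen by symbol as genes of melanin synthesis and of the melanocyte lineage, and all 8 were found among the 30386 genes of the deposited table. Epidermis had been parted from dermis by Dispase and made into single cells, and mRNA was read from its 3' ends, with 2566406 to 4478549 counted reads a library. p63, encoded by Trp63, is a transcription factor of stratified epithelia whose isoforms differ at the carboxy terminus, and the study's title asks how targeted change of its isoforms bears on epidermal homeostasis. The sources used here do not give the strain, its coat colour genes, the way the p63alphaKO allele was made or its zygosity. Nor do they say that the replicates are separate embryos, so p-values measure the spread between these libraries only, which may be technical.

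Melanocytes arise from the neural crest, reach the epidermis and hair follicles as migrating melanoblasts, and make melanin in lysosome-related organelles called melanosomes. Mitf, the transcription factor at the head of the lineage, is switched on by Sox10 and drives the pigment genes, while the receptor tyrosine kinase Kit carries the survival and migration signal of its ligand, which keratinocytes make. Tyr, Tyrp1 and Dct are related enzymes of melanin synthesis, Pmel forms the fibrils on which melanin is laid down, and Mlana is a melanosome protein. In bulk tissue, a change in the number of melanocytes and a change in RNA per melanocyte cannot be told apart.

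The 3 enzyme genes carried the same 9 bases, TCATGTGCT, in their promoters, which is why those are shown. This stretch holds CATGTG, a form of the E-box that MITF is known to bind in pigment genes. Promoter windows (250 bases before to 50 after a transcript start, RefSeq, build GRCm38.p6, which is mm10) were matched for 5 of the 8 genes, namely Dct, Tyr, Tyrp1, Mitf and Kit. The sequences run 5′ to 3′ on the strand of the gene, with the 9 bases in capitals. The Dct window is chr14:118052197-118052496 on the minus strand, the Tyr window chr7:87493463-87493762 on the minus strand, and the Tyrp1 window chr4:80833963-80834262 on the plus strand.
Dct: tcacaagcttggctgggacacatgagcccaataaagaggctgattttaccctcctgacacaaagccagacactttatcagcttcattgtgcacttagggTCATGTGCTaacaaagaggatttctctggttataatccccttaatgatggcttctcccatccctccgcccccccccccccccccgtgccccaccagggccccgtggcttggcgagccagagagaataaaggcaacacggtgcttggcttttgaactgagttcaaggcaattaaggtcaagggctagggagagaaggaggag
Tyr: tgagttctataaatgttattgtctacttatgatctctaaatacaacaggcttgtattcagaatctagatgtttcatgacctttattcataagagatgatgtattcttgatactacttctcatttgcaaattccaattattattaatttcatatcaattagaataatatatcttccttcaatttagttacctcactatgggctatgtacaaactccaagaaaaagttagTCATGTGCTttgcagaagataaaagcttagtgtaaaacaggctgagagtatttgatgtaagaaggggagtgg
Tyrp1: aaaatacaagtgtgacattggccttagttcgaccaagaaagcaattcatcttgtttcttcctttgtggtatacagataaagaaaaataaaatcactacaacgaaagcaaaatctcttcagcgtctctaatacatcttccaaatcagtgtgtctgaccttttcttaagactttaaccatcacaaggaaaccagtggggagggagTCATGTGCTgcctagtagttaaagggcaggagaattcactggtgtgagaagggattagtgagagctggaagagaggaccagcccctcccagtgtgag

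The 9 bases began 151 bases before the transcript start in Dct, 47 in Tyrp1 and 22 in Tyr, each time on the gene's own strand. Searched on both strands, TCATGTGCT was held by 112 of 27025 genes with a promoter window (0.414%), and CATGTG, which lies within it, by 15.9%. The 3 windows of Mitf and the 2 of Kit held neither, nor did any of the 5 matched genes hold the other E-box form CACGTG. A match is a run of letters and not a measured binding site. In the wider list of pigment enzymes and melanosome proteins, 11 of 15 genes had a window and 8 of these held CATGTG, among them the 3 enzyme genes, while the 9 bases were in those 3 only.

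Over the 8 genes, none passed the test between p63alphaKO and WT, and Dct came nearest. Levels are in CPM, reads scaled to the same total in every library, and were not divided by transcript length. The test was limma on log2(CPM + 1), run over 7464 genes whose mean reached 10 CPM. Of the 8 genes, 4 reached that mean (Dct, Pmel, Mitf and Sox10), and 0 of these were called at an adjusted p under 0.05, beside 1.65% of all tested genes. Dct alone had an unadjusted p under 0.05 (15.6% of all tested genes), while edgeR's quasi-likelihood test called 0 of the 4 (1.10% of all tested genes) and DESeq2 called 1, Dct (4.25%). All fold changes below are p63alphaKO over WT, and n is 3 libraries in each group.

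Dct encodes dopachrome tautomerase, an enzyme of the eumelanin branch, and was the member with the most reads (5290 in all). It stood at 131, 198.5 and 244 CPM in WT replicates 1, 2 and 3 and at 373, 324 and 255 CPM in p63alphaKO replicates 1, 2 and 3. Each p63alphaKO library thus lay above each WT library, but the highest WT library and the lowest p63alphaKO library nearly met. Their counting intervals (exact Poisson, 95%) overlapped, from 227 to 262 CPM in WT replicate 3 and from 238 to 273 CPM in p63alphaKO replicate 3. Means were 191 ± 57.0 CPM (SD) for WT and 317 ± 59.1 CPM for p63alphaKO, a ratio of 1.66. The log2 fold change of 0.76 (SE 0.22) did not pass limma's test (adjusted p = 0.0978), and the exact permutation test, two-sided, gave p = 0.1, the smallest that 3 against 3 libraries allow. A larger positive log2 fold change than that of Dct was found for 245 of the 7464 tested genes (3.28%). Groups that did not overlap, with p63alphaKO higher, were found for 1 of the 8 members, beside 7.60% of the tested genes and 6.08% of the 12298 genes whose mean reached 1 CPM. Counted in either direction, it was again 1 of the 8 members, beside 20.4% of these 12298 genes.

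The outcome for Dct depended on the setting. It was called with upper quartile scaling (log2 fold change 0.89, adjusted p = 0.0444), by DESeq2 (0.83, adjusted p = 0.00811) and without WT replicate 3 (0.96, adjusted p = 0.0294). These settings called 1.78%, 4.25% and 1.63% of all tested genes. With 1 library left out its log2 fold change lay between 0.51 (without WT replicate 1) and 0.96. The Dct gene lies on chromosome 14 from 118012790 to 118052244 on the minus strand (GENCODE M21, mm10), and no exon of another annotated gene overlaps its exons.

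**Figure D1:**
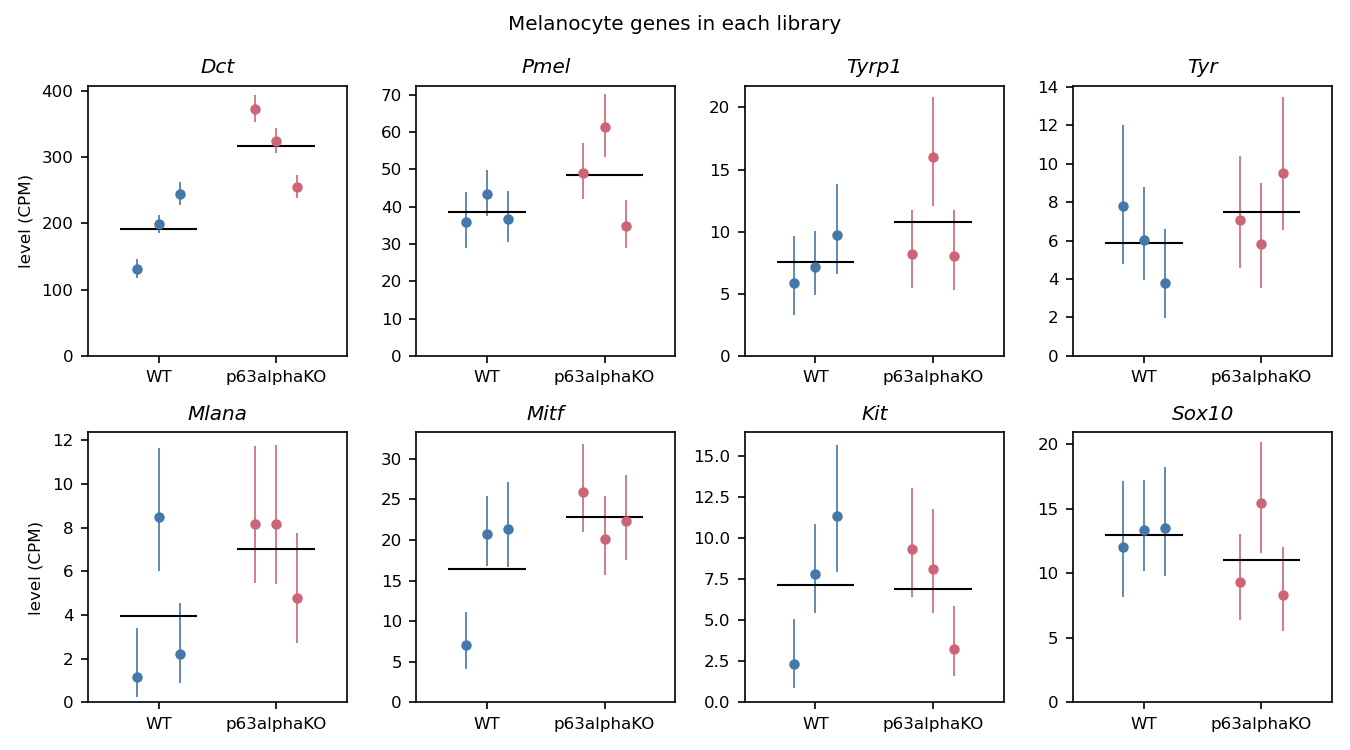
Level of each melanocyte gene (y axis, CPM, starting at 0) in the 3 WT libraries (blue) and 3 p63alphaKO libraries (red). Points are libraries, in the order of replicates 1 to 3 from left to right, vertical bars the exact Poisson 95% interval of the read count, and black lines group means. Dct is the panel in which the groups do not overlap, with 244 CPM as the highest WT value and 255 CPM as the lowest p63alphaKO value.

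The other enzyme genes had few reads and overlapped between the groups. Tyr encodes tyrosinase, the rate-limiting enzyme of melanin synthesis (chromosome 7, 87424771 to 87493512, minus strand). It stood at 7.79, 6.03 and 3.78 CPM in WT and at 7.06, 5.82 and 9.54 CPM in p63alphaKO, from 12 to 32 reads a library. Tyrp1 encodes a tyrosinase-related protein that stabilises tyrosinase (chromosome 4, 80834123 to 80851719, plus strand). It stood at 5.84, 7.15 and 9.76 CPM in WT and at 8.19, 16.0 and 8.05 CPM in p63alphaKO, where replicate 2 was high and the other two lay within the WT range. Ratios of the group means were 1.27 for Tyr and 1.42 for Tyrp1, with exact permutation p of 0.5 and 0.4. Both genes were under the minimum of 10 CPM, and with the minimum lowered to 1 CPM neither passed limma's test (log2 fold change 0.32 and 0.41, SE 0.45 and 0.42, adjusted p = 0.792 and 0.702), beside 2.08% of genes called.

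The melanosome proteins gave a like picture. Pmel, the fibril protein, stood at 35.9, 43.3 and 36.8 CPM in WT and at 49.1, 61.4 and 34.9 CPM in p63alphaKO. p63alphaKO replicates 1 and 2 were above all WT libraries and replicate 3 was below all of them. The log2 fold change was 0.29 (SE 0.24, limma adjusted p = 0.634). The last 105 bases of Pmel (chromosome 10, 128704195 to 128720238, plus strand) are also exon of Dgka on the other strand, and 34 bases at its start are exon of Cdk2. The sources used here do not give the strand setting of the counting. Reads of Pmel that fall within the 105 shared bases at its 3' end may thus not be kept apart from those of Dgka. How many reads fall there was not examined. Dgka itself averaged 40.2 CPM (WT) and 37.0 CPM (p63alphaKO) (log2 fold change -0.11, adjusted p = 0.868).

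Mlana (chromosome 19, 29697824 to 29708634, plus strand) had the fewest reads of the 8, 121 in all. It stood at 1.17, 8.48 and 2.20 CPM in WT and at 8.19, 8.15 and 4.77 CPM in p63alphaKO. WT replicate 2 was the highest of all libraries, WT replicates 1 and 3 the lowest, and the WT replicate 1 value rests on 3 reads (interval 0.241 to 3.42 CPM). The ratio of means was 1.78 with an exact permutation p of 0.4. Its log2 fold change was 0.96 (SE 0.57, adjusted p = 0.463 by limma with a minimum of 1 CPM) and went to 0.51 without WT replicate 1 and to 1.58 without WT replicate 2.

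Summed over Dct, Pmel, Tyrp1, Tyr and Mlana, the pigment genes held 182, 263 and 297 CPM in the WT libraries. In p63alphaKO they held 445, 416 and 312 CPM. The mean sum was 247 ± 59.3 CPM (WT) and 391 ± 69.8 CPM (p63alphaKO), a ratio of 1.58, and no library of either group entered the range of the other. Dct made up between 72.1% and 83.7% of this sum, so it speaks mainly for Dct. Without Dct the mean sum was 56.1 ± 7.78 CPM (WT) and 73.8 ± 17.1 CPM (p63alphaKO), a ratio of 1.32, and the groups overlapped (57.3 CPM in p63alphaKO replicate 3 against 65.0 CPM in WT replicate 2). The ratio of Dct to Pmel, which no scaling of libraries changes, was 3.65, 4.58 and 6.63 in WT and 7.59, 5.28 and 7.31 in p63alphaKO, also with overlap.

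The regulators of the lineage differed from one another in direction and none was called. Mitf (chromosome 6, 97807052 to 98021349, plus strand) stood at 7.01, 20.8 and 21.4 CPM in WT and at 26.0, 20.1 and 22.4 CPM in p63alphaKO. WT replicate 1 stood apart with 18 reads, and the other 5 libraries lay close together. The log2 fold change of 0.59 (SE 0.38, limma adjusted p = 0.501) fell to 0.10 without that library. Mitf has 7 annotated transcript starts, and a count at the 3' end pools them, so the melanocyte form is not read apart from forms that other cells make.

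Sox10, the neural crest transcription factor upstream of Mitf (chromosome 15, 79154908 to 79165240, minus strand), stood at 12.1, 13.4 and 13.5 CPM in WT. In p63alphaKO it stood at 9.32, 15.4 and 8.35 CPM, with replicates 1 and 3 below and replicate 2 above all WT libraries. Its log2 fold change was -0.26 (SE 0.38, limma adjusted p = 0.798), the only negative value among the 8 genes with all libraries in. Kit (chromosome 5, 75574916 to 75656722, plus strand) stood at 2.34, 7.82 and 11.3 CPM in WT and at 9.32, 8.15 and 3.28 CPM in p63alphaKO. The groups covered nearly the same range, with a ratio of means of 0.966 (exact permutation p = 1) and a value of 0.051 on the log2 scale (SE 0.54, adjusted p = 0.981 by limma with a minimum of 1 CPM). Its sign changed with the library left out, from -0.50 without WT replicate 1 to 0.45 without WT replicate 3.

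With all 8 genes tested at a minimum of 1 CPM, the edgeR test on whole reads called 0 of 8, beside 0.903% of 12298 genes. Its adjusted p ran from 0.0675 for Dct to 0.975 for Kit. WT replicate 1, the library with the fewest reads, held the lowest value of all 6 libraries for Dct, Tyrp1, Mlana, Mitf and Kit, but not for Pmel, Tyr or Sox10. Of the marker lists given below, it also had the highest dermis (5646 CPM), mast cell (143 CPM without Kit) and endothelial (63.1 CPM) sums. Its hair follicle sum (927 CPM) was the lowest. The part of this library in the values of the 8 genes, beyond leaving it out, was not tested.

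**Figure D2:**
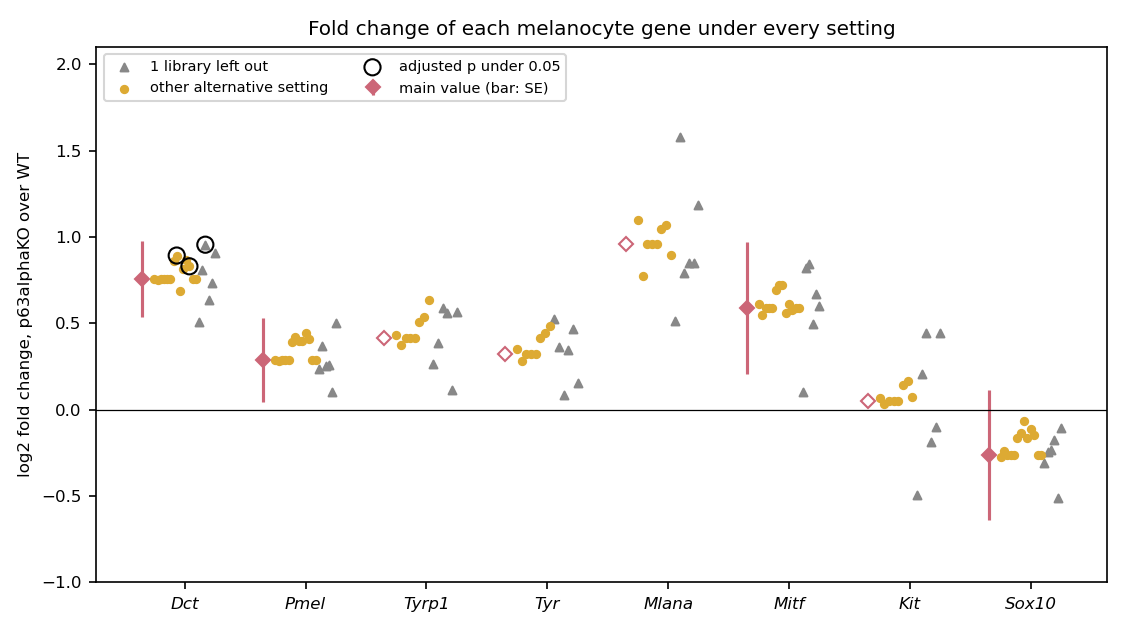
Log2 fold change, p63alphaKO over WT (y axis), of each melanocyte gene (x axis). Diamonds are the reported values (open where the gene was under the minimum of 10 CPM, bars are SE), triangles have 1 library left out, dots are the other settings, and circles mark an adjusted p under 0.05. The circles are all on Dct, and Kit has values on both sides of 0.

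The wider pigment pathway was read through 4 lists holding 84 genes of the table, the 8 genes included, of which 47 were tested. In all 2 were called, 1 higher and 1 lower (4.26%, beside 1.65% of all tested genes, of which 0.469% were higher and 1.18% lower), with a median log2 fold change of -0.00066 against -0.085 over all tested genes. Among pigment enzymes and melanosome proteins, 0 of 6 tested genes were called. The other 9 of the list's 15 genes were under the minimum, which Slc24a5, described below, reached only through its p63alphaKO level. Cd63, a tetraspanin that sorts Pmel and is found in most cells, averaged 255 ± 82.1 CPM (WT) and 255 ± 30.5 CPM (p63alphaKO) (log2 fold change 0.042, adjusted p = 0.955). Oca2, Gpr143 and Slc45a2, melanosome genes picked for mention after their values were seen, were near the limit of detection. Oca2 and Gpr143 did not exceed 1.46 and 1.16 CPM in any library. Slc45a2, a transporter, went the other way from Dct, at 2.34, 1.79 and 2.20 CPM in WT and at 0, 0.29 and 0.89 CPM in p63alphaKO, with all p63alphaKO libraries lower. At these depths 3 reads equal 0.670 to 1.17 CPM.

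The called rise was that of F2rl1, the protease-activated receptor with which keratinocytes take up melanosomes, and which they also use outside pigmentation. F2rl1 stood at 19.1, 23.0 and 13.5 CPM in WT and at 46.0, 41.1 and 54.0 CPM in p63alphaKO. The p63alphaKO libraries were all higher, with a log2 fold change of 1.32 (SE 0.26, limma adjusted p = 0.0192). The call was lost without p63alphaKO replicate 1, 2 or 3, with adjusted p up to 0.144. It was the 1 call among 17 tested genes of melanosome biogenesis and transport, 12 of which had negative values.

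The called fall was that of Wnt5a, a Wnt ligand made in skin mesenchyme. Wnt5a stood at 27.3, 16.8 and 18.3 CPM in WT and at 4.52, 6.70 and 4.18 CPM in p63alphaKO. All p63alphaKO libraries were lower, by -1.82 on the log2 scale (SE 0.41, limma adjusted p = 0.0376). Wnt5a reached the minimum of 10 CPM only through its WT level (means 20.8 CPM for WT, 5.13 CPM for p63alphaKO). No call was left when any 1 of the 6 libraries was taken out (adjusted p from 0.0533 to 0.138). It was the 1 call among 13 tested ligands and other signals that act on melanocytes. Fibroblast and dermis markers were lower in the same libraries, as given below, and their part in this value was not tested. The Kit ligand gene Kitl, also picked afterwards, averaged 27.4 ± 11.7 CPM (WT) and 28.0 ± 4.56 CPM (p63alphaKO) (log2 fold change 0.11, adjusted p = 0.914).

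Of the lineage regulators and receptors, 0 of 11 tested genes were called, 6 positive and 5 negative. Tfap2a and Tfap2b, AP-2 factors of neural crest and keratinocytes, had the most reads. Tfap2a averaged 122 ± 26.6 CPM (WT) and 156 ± 20.7 CPM (p63alphaKO) (log2 fold change 0.36, adjusted p = 0.409). Tfap2b averaged 112 ± 15.0 CPM (WT) and 93.0 ± 22.8 CPM (p63alphaKO) (log2 fold change -0.29, adjusted p = 0.571). Zeb2 and Pax3 were picked for mention after their values were seen. Zeb2, a factor of melanocytes and of mesenchyme, had the lowest value of the list (log2 fold change -1.54, adjusted p = 0.0523), with means of 27.5 ± 12.8 CPM (WT) and 8.33 ± 1.87 CPM (p63alphaKO). Pax3, which acts with Sox10 on Mitf, averaged 9.38 ± 0.680 CPM (WT) and 13.5 ± 7.09 CPM (p63alphaKO) (log2 fold change 0.36, adjusted p = 0.752). Zeb2 reached the minimum of 10 CPM only through its WT level, and Pax3 only through its p63alphaKO level.

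**Figure D3:**
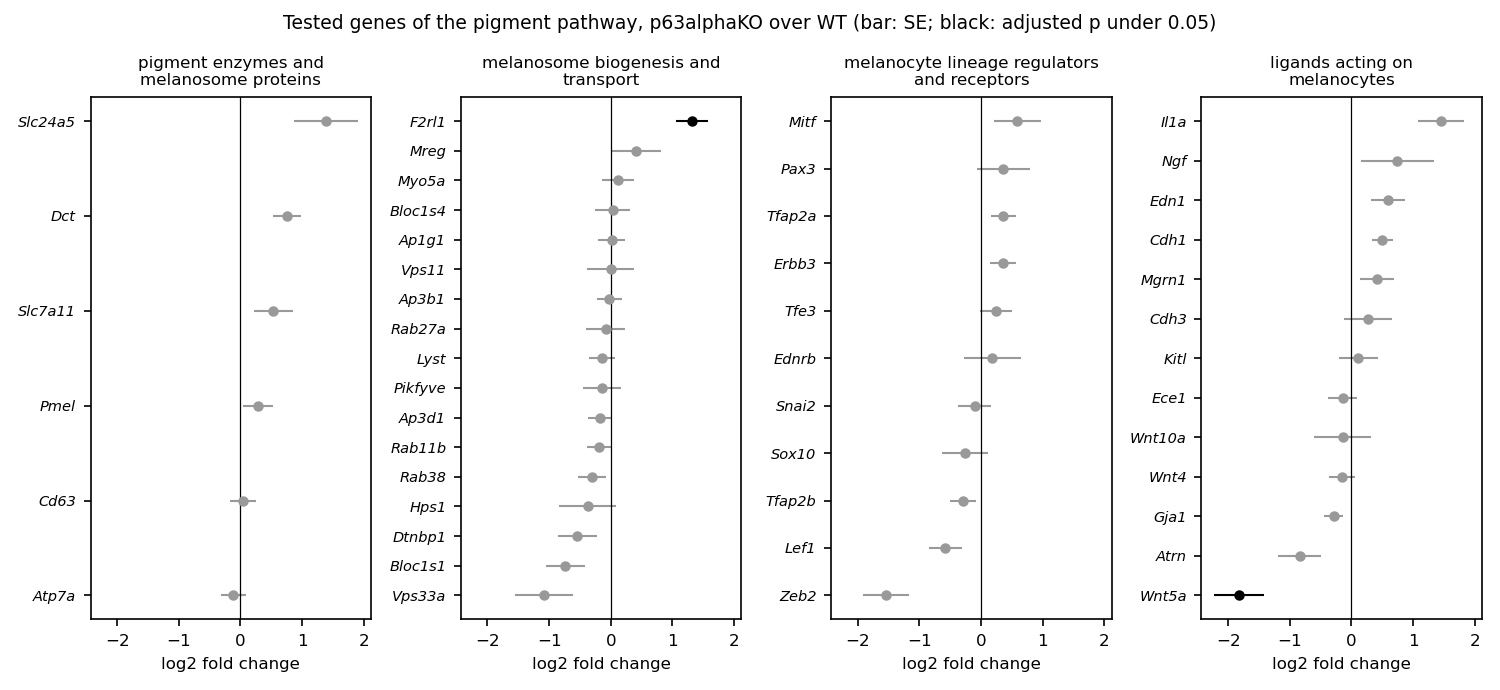
Log2 fold change, p63alphaKO over WT (x axis), of the tested genes in 4 lists of the pigment pathway, one gene a row. Points are limma values, bars are SE, and black marks an adjusted p under 0.05. F2rl1 (1.32) and Wnt5a (-1.82) are the black points.

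The gene whose level most closely followed the pigment sum was another melanosome gene, Slc24a5. Among 7460 tested genes outside the 8, Slc24a5 had the highest Pearson's r with the sum on the log2 scale (0.99 over 6 libraries). It encodes a cation exchanger of pigment cells that is mutated in the golden zebrafish. It stood at 2.34, 7.37 and 11.0 CPM in WT and at 23.2, 22.7 and 9.54 CPM in p63alphaKO. p63alphaKO replicates 1 and 2 were above all WT libraries and replicate 3 was below WT replicate 3. Its log2 fold change of 1.39 (SE 0.52) did not pass limma's test (adjusted p = 0.210), and lay between 0.86 and 1.78 with 1 library left out.

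The next genes by this measure were Ppil4, Msi2, Smyd3 and Edn1, each with r of 0.99. Edn1 encodes endothelin 1, which keratinocytes make and which stimulates melanocytes. It stood at 14.4, 19.7 and 21.4 CPM in WT and at 29.9, 29.4 and 25.1 CPM in p63alphaKO, without overlap (log2 fold change 0.59, SE 0.27, limma adjusted p = 0.304). Edn1 was picked for following a sum whose groups do not overlap, so its own separation is no separate result. Of all tested genes, 7.60% were higher in p63alphaKO without overlap. Such r values are a description over 6 libraries that share their totals and group means with the sum: 66 of the 7460 genes had an r above 0.9. Of the 8 genes, r with the sum was 0.99 for Dct, which makes up most of it, 0.83 for Mitf, 0.75 for Mlana, 0.70 for Pmel and for Tyrp1, 0.65 for Kit, and -0.12 for both Tyr and Sox10.

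**Figure D4:**
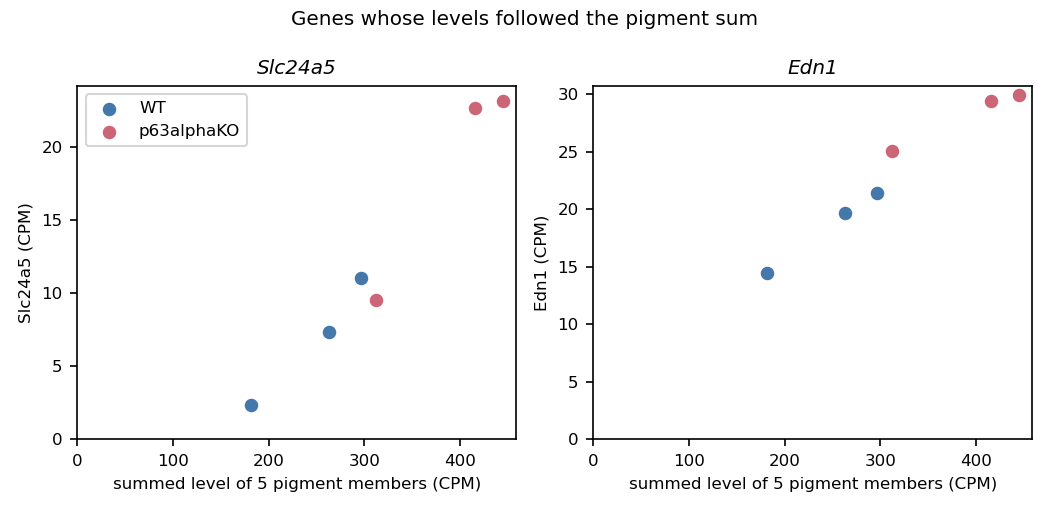
Level of Slc24a5 (left) and Edn1 (right) on the y axes, in CPM, against the summed level of Dct, Pmel, Tyrp1, Tyr and Mlana on the x axes, in CPM. Points are the 3 WT (blue) and 3 p63alphaKO (red) libraries. Both genes are lowest in WT replicate 1, where the sum is 182 CPM, and highest in p63alphaKO replicate 1, where it is 445 CPM.

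Kit is also a mast cell gene and Sox10 also a Schwann cell gene, so markers of both cells were read beside them. The 11 mast cell markers other than Kit summed to between 41.1 and 143 CPM in WT and between 4.77 and 13.3 CPM in p63alphaKO. Cpa3, the mast cell carboxypeptidase, was the 1 tested marker of the list and fell, with means of 32.5 ± 16.4 CPM (WT) and 1.15 ± 1.17 CPM (p63alphaKO) (log2 fold change -4.02, SE 0.60, limma adjusted p = 0.00327). Cpa3 reached the minimum of 10 CPM only through its WT level. Ms4a2 and Mrgprb2 were at 0 in every library. The lower mast cell markers thus stood beside a Kit level whose groups covered nearly the same range, and their part in the Kit value was not tested.

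The 17 Schwann cell and nerve markers other than Sox10 summed to between 125 and 177 CPM in WT and between 130 and 172 CPM in p63alphaKO. Most of that sum came from Erbb3 (83.3 ± 17.0 CPM in WT, 106 ± 16.0 CPM in p63alphaKO, adjusted p = 0.438) and Mbp (25.1 ± 9.28 and 38.0 ± 5.46 CPM, adjusted p = 0.295), which are not restricted to these cells. The lists of melanocyte and Schwann cell genes share Sox10, Erbb3 and Foxd3.

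The tissue label was checked on keratinocyte markers, which summed to between 111183 and 120415 CPM in all 6 libraries, most of it from Krt10, Krt1 and Flg of the upper layers. Krt15, a keratin of the basal layer, was called lower in the same list (1347 ± 530 CPM for WT, 361 ± 18.6 CPM for p63alphaKO, log2 fold change -1.80, adjusted p = 0.00164). Trp63, the gene named in the genotype, was at 63.9, 71.7 and 87.2 CPM in WT and at 143, 146 and 136 CPM in p63alphaKO (log2 fold change 0.93, adjusted p = 0.0192), and a count per gene does not check which isoform is lost. Trp63 was no longer called with any 1 of the p63alphaKO libraries left out (adjusted p up to 0.0998). Fibroblast and dermis markers summed to between 2577 and 5646 CPM in WT and between 554 and 966 CPM in p63alphaKO. Of 12 tested genes 9 were called lower (Col1a1, Col1a2, Col3a1, Col5a1, Col6a1, Lum, Dcn, Fbn1 and Sparc), beside 1.18% of all tested genes. With 1 library left out, Fbn1 was called in 2 of 6 fits, Col5a1 in 3, Col6a1 and Sparc in 5, and the others in all 6. Col6a1, Lum and Fbn1 reached the minimum of 10 CPM only through their WT level. Endothelial markers summed to between 22.3 and 63.1 CPM in WT and between 4.48 and 8.44 CPM in p63alphaKO, and Langerhans and immune markers to between 33.7 and 71.8 and between 17.6 and 35.6 CPM, with Thy1 as the 1 tested gene (log2 fold change -1.76, adjusted p = 0.156). The Merkel cell sum was higher in every p63alphaKO library, at 67.4 to 93.5 CPM for WT and 96.1 to 124 CPM for p63alphaKO. Most of it came from the 1 tested marker Chga (log2 fold change 0.61, adjusted p = 0.154). Chga stood at 77.5, 66.3 and 51.6 CPM in WT and at 109, 85.9 and 104 CPM in p63alphaKO. The other markers were low and went both ways. Sox2 was higher without overlap (means 0.223 CPM for WT, 1.95 CPM for p63alphaKO). Krt18 was lower without overlap (2.96 and 1.38 CPM), and Piezo2, with overlap, averaged 6.93 and 2.46 CPM. Hair follicle epithelium, where melanocytes gather, summed to between 927 and 1540 CPM in WT and between 1200 and 1403 CPM in p63alphaKO. Of its 9 tested genes 0 were called higher and 2 lower, beside 0.469% and 1.18% of all tested genes. The 2 were the inner root sheath keratins Krt25 and Krt71. Krt71, like Thy1, reached the minimum of 10 CPM only through its WT level. Krt25 was no longer called with p63alphaKO replicate 1 or replicate 3 left out (adjusted p up to 0.0816). Mast cell, endothelial and dermis sums were thus lower in every p63alphaKO library, opposite to Dct. The Merkel cell sum, mostly Chga, was higher in every one. Immune and Schwann cell sums overlapped, the latter being mostly Erbb3 and Mbp. The part of these lists in the melanocyte values was not tested.

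**Figure D5:**
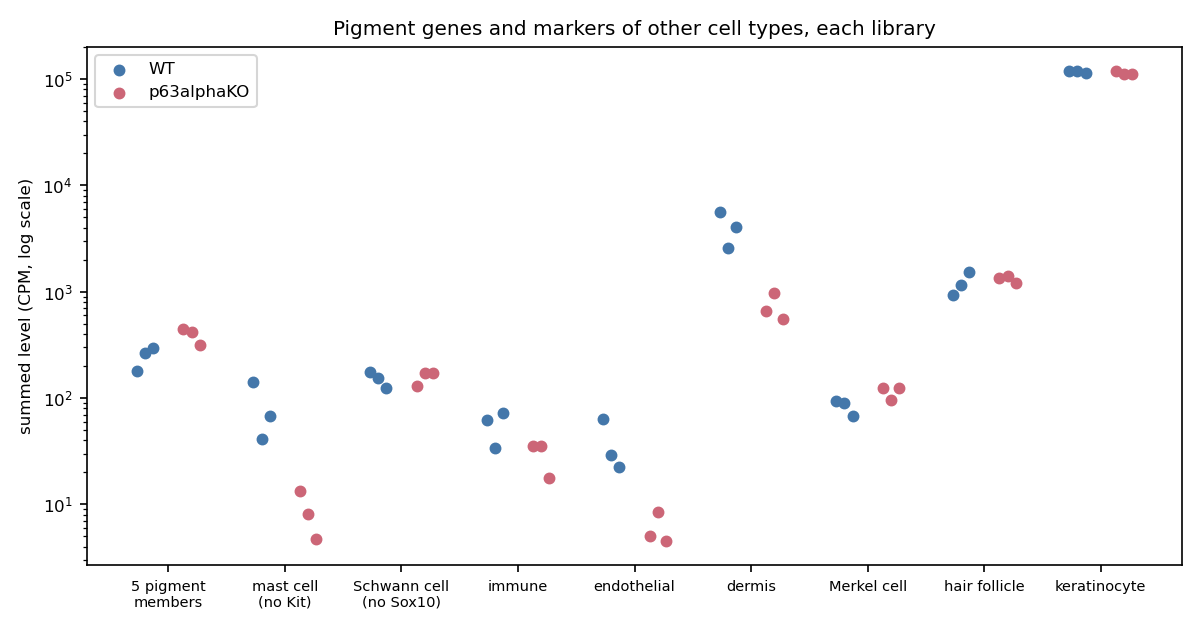
Summed level (y axis, CPM, log scale) of the 5 pigment genes and of marker lists of other cell types (x axis) in each WT (blue) and p63alphaKO (red) library. The pigment sum is higher in all p63alphaKO libraries (312 to 445 CPM against 182 to 297 CPM). Mast cell, endothelial and dermis sums are lower in all of them, and the Merkel cell sum, mostly Chga, is higher.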

How the data were processed

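The deposited table gives 3'DGE mRNA sequencing of 3 WT and 3 p63alphaKO libraries. The submitters' processing notes name STAR, HTSeq and build mm10. The sources used here do not give their versions, the annotation or the strand setting. The authors deposited CPM with 2 decimals, in columns summing to between 999157 and 999401. All values (100%) were whole multiples of 1 read within 0.0055 CPM, which gave library totals of 2566406, 4478549 and 3176327 reads (WT) and 3542101, 3434055 and 3352866 reads (p63alphaKO). Counting intervals (95%, exact Poisson) and the floor of 3 reads cover counting error only.

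Genes whose mean reached 10 CPM were tested on log2(CPM + 1) with limma 3.58.1 (R 4.3.3, trend option), two-sided, with Benjamini-Hochberg adjustment over all tested genes and a threshold of 0.05. This scale understates the change of low genes. Single values had exact permutation tests. Alternatives were edgeR 4.0.16 and DESeq2 1.42.0 on whole reads, and other minimums, pseudocounts and scalings. The steps were tested on simulated data. Positions are from GENCODE M21 (30271 of 30386 IDs found).

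The members and lists were chosen with earlier results of these data known. By rule, all 8 members, the called genes of each list (or else its 2 highest tested genes) and the 5 genes most like the pigment sum are named.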

Additional observations from a re-analysis of the deposited data

How the results depend on the processing

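Values under other settings are given here, and the cause of each change was not tested. The count of genes called (123) was 256 with a minimum of 1 CPM, 36 with a minimum of 50 CPM, 317 with DESeq2, 41 without limma's trend, and between 37 and 186 with 1 library left out. The count of members called (0) was 1, always Dct, with upper quartile scaling (log2 fold change 0.89), with DESeq2 (0.83) and without WT replicate 3 (0.96). With 1 library left out it was 0 to 1, and the log2 fold change of Dct between 0.51 and 0.96. Members without overlap between the groups (1, Dct) numbered 2 with TMM and with upper quartile factors, where Mitf joined, and between 1 and 3 with 1 library left out. Over the 12298 genes whose mean reached 1 CPM, the share without overlap in either direction was 20.4% as deposited. This share was 19.8% and 19.9% with these factors, and 27.4% to 35.3% with 1 library left out. The count of 3, without p63alphaKO replicate 2, was Dct and Mitf higher and Sox10 lower. The number of genes called in the 4 pathway lists (2) was 0 with a minimum of 50 CPM, 1 with no minimum, 1 after quantile normalization and between 0 and 2 with 1 library left out. It was 3 with a minimum of 1 or 5 CPM, where Zeb2 joined, and 3 with upper quartile factors, where Dct joined. Where it was 2 with a WT library left out, the genes were F2rl1 and, in place of Wnt5a, Il1a, Zeb2 or Dct. The pigment sum was higher in p63alphaKO by 144 CPM, by 167 and 173 CPM with TMM and upper quartile factors, and by 111 to 183 CPM with 1 library left out. Over the tested genes, the median log2 fold change was -0.085 as deposited, 0.019 with TMM and 0.048 with upper quartile factors. Same-numbered libraries did not deviate together (r of -0.023, 0.066 and -0.11 over genes for replicates 1, 2 and 3). Pairs with different numbers gave r from -0.13 to 0.15. With 3 libraries a group, such r cannot settle whether the numbers pair libraries. With the replicate block 127 genes and 0 members were called, and the adjusted p of Dct was 0.129. Depth limits Mlana, Kit and Tyr most, with as few as 3, 6 and 12 reads in a library.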
